A study of Arabidopsis thaliana with 6 samples.

Results

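Beta-galactosidases release terminal galactose from the side chains of plant cell wall polymers, and the enzymes of glycoside hydrolase family 35 that do so in Arabidopsis thaliana are encoded by the BGAL genes. Galactose occurs in the galactan side chains of pectin, in xyloglucan and in arabinogalactan proteins, and its removal changes how these polymers pack and bind while a wall expands, matures or is taken apart. In sugar-starved Arabidopsis cells, wall hydrolases of this kind are known to be induced.

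The 10 genes described here are BGAL1, BGAL2, BGAL3, BGAL4, BGAL5, BGAL8, BGAL9, BGAL10, BGAL12 and BGAL17. They were taken by locus identifier from the 27655 gene loci in the RNA-seq tables, and the family was selected on its read counts in these libraries, BGAL1 having one of the largest differences of the data. Every value of the 10 genes is therefore a description. The gene table of the reference assigns 17 loci to the family. The other 7 are BGAL6, which it lists as MUM2, and BGAL7, BGAL11, BGAL13, BGAL14, BGAL15 and BGAL16.

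The series asked how gene expression, trimethylation of histone H3 at lysine 4 and binding of the demethylase JMJ16 are related in leaves of plants with and without JMJ16. RNA was read in 1 library from wild type Col-0 plants and 1 library from jmj16 plants, which carry the insertion allele jmj16-1 in the same Col-0 background, and 4 chromatin immunoprecipitation samples were not analysed here. Both libraries came from fully expanded rosette leaves 5 and 6 with no visible yellowing, of plants kept 6 days on plates and then in soil at 22 °C with 16 h of light. The age is given as 4 weeks in one label and 5 weeks in another. A single insertion allele stands for the loss of JMJ16, no treatment is labelled, and whether leaves of several plants were pooled is not given in the sources used here.

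The libraries held 10643186 (wild type) and 13844284 (jmj16) estimated reads. JMJ16 itself (AT1G08620) had 188 reads in wild type against 168 in the jmj16 library, a 1.55-fold lower level (95% counting interval 1.25 to 1.92) that became a log2 ratio of 0.37 (0.06 to 0.68), in the other direction, after correction for transcript length. The count does not check the label, so that library is called the one labelled jmj16. Of 5 leaf markers all were read at high levels, with a summed TPM of 27588 and 17754, a median log2 ratio of -0.89, and carbonic anhydrase CA1 3.96-fold lower in the library labelled jmj16. Of 5 xylem markers 4 were measured and 3 were higher, where 7.22% of all measured genes were higher and 10.6% lower. These 3 had few wild type reads: XCP1 had 5 and 26, XCP2 21 and 91 and CESA8 2 and 18. The 5 xylem markers summed to 2.50 and 7.80 TPM, while 5 floral markers summed to 3.87 and 0.926 TPM. Of 3 dividing cell markers only CDKB2;1 was measured, with 9 and 12 reads and a log2 ratio of -0.08. The part of these markers in the BGAL values was not tested. Of 4 root markers EXPA7 had no read and only SCR, which leaves also use, was measured. In leaf tissue as a whole, fewer cells of a type and less RNA per cell cannot be told apart. With 1 library per genotype nothing here has been checked in replicates, no p-value is given, and intervals cover counting error only.

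Of the 10 beta-galactosidase genes 7 were lower in the library labelled jmj16, and BGAL1 by most. Genes with 20 or more reads in the libraries together count as measured, and a measured gene was called lower or higher if the difference was 2-fold or more and its counting interval excluded equality. All 10 members were measured, with 0 higher and 3 neither beside the 7, where 10.6% of the 17151 measured genes were lower and 7.22% higher. The lower members were BGAL1, BGAL2, BGAL3, BGAL4, BGAL5, BGAL10 and BGAL12, while BGAL8, BGAL9 and BGAL17 were neither. The median log2 ratio of the library labelled jmj16 over wild type was -1.37 over the 10 members and 0.02 over all measured genes. Without BGAL1 the median of the other 9 was -1.06, or -0.66 after a correction for transcript length described further on. With that correction 4 of the 9 were lower, where 6.69% of all measured genes were lower and 6.24% higher.

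BGAL1 (AT3G13750), a wall enzyme known to act on the galactan side chains of pectin, was the most abundant member in both libraries. It had 16150 reads in wild type against 1438 in the library labelled jmj16. On the scale of TPM, a relative abundance per length of transcript in which levels of genes can be compared, this was 399 (95% counting interval 393 to 406) and 26.9 (25.6 to 28.4). These intervals lay far apart, and the scaled count was 15.6-fold lower (14.8 to 16.4). In wild type 277 of 27655 loci had a higher TPM than BGAL1, and in the library labelled jmj16 4376 had. Only 33 of 17151 measured genes had a lower log2 ratio, and only 2 of the 6856 with at least 500 reads. Of the 82 genes with at least as many wild type reads as BGAL1, itself among them, 8 were called lower and none had a lower ratio. The locus has 1 transcript model, so that the value does not rest on a division among models.

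Named genes with 500 or more reads whose log2 ratio lay nearest to the -3.96 of BGAL1 were found by the absolute difference of the ratio. These were RLP19, a receptor-like protein, at -3.49, the expansin EXPA8 at -4.52, the gibberellin-regulated peptide GASA6 at -4.74 and the light-harvesting gene LHB1B1 at -2.77. In that order they were at -2.79, -4.71, -5.05 and -2.95 after length correction, and BGAL1 was at -3.20. With only 2 libraries, likeness means a like difference between the libraries and no more. LHB1B1 has near-identical paralogs that share reads, so its value is uncertain.

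**Figure D1:**
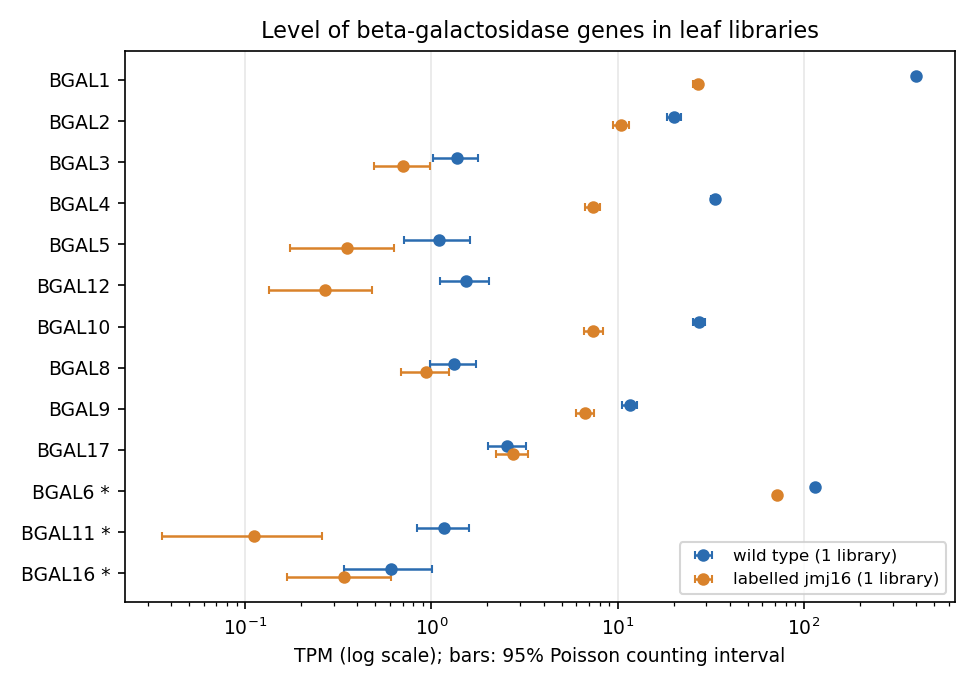
TPM (horizontal, log scale) of the 13 measured BGAL genes in the wild type and the library labelled jmj16, 1 library each, with 95% Poisson counting intervals as bars and an asterisk on the 3 loci outside the 10 members. BGAL1 stands at 399 TPM in wild type and 26.9 in the library labelled jmj16, and the points of BGAL17 nearly coincide at 2.56 and 2.73.

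BGAL1 belongs with BGAL2, BGAL3, BGAL4, BGAL5 and BGAL12 to the subfamily known as a1, whose enzymes are reported to cleave galactose from galacto-oligosaccharides. All 6 of these were lower, and 4 after length correction, where 10.6% and 6.69% of measured genes were lower. BGAL4 (AT5G56870) had 1478 reads in wild type against 432 in the library labelled jmj16, or 33.3 (31.6 to 35) and 7.36 TPM (6.69 to 8.09). It was 4.74-fold lower (4.26 to 5.29), the next largest difference among the members with at least 100 reads over both libraries. BGAL2 (AT3G52840) had 576 and 395 reads, or 20.2 (18.5 to 21.9) and 10.5 TPM (9.45 to 11.5). Its 2.02-fold lower count (1.78 to 2.30) lay at the edge of the 2-fold rule, and under total-count scaling its log2 ratio of -0.92 no longer passed.

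The other 3 genes of the subfamily were little read, and their intervals are wide. BGAL12 (AT4G26140) had 46 reads in wild type against 11 in the library labelled jmj16, 5.61-fold lower (2.96 to 12.4). BGAL5 (AT1G45130) had 26 and 11 reads, 3.20-fold lower (1.56 to 7.35). BGAL3 (AT4G36360), which like BGAL1 is known to act on pectic galactan, was at 53 and 35 reads, 2.09-fold lower (1.34 to 3.32). Under total-count scaling its log2 ratio of -0.97 did not pass. Added up, the 6 genes had 18329 reads in wild type against 2322 in the library labelled jmj16, 10.9-fold lower (10.5 to 11.4), a sum that is mostly BGAL1.

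BGAL10 (AT5G63810), the enzyme known to remove galactose from xyloglucan, had 805 reads in wild type against 288 in the library labelled jmj16. Its level was 27.4 TPM (25.5 to 29.3) against 7.42 (6.58 to 8.32), and the intervals did not overlap. The scaled count was 3.87-fold lower (3.38 to 4.45). With BGAL1 and BGAL4, BGAL10 is one of the 3 most abundant members in wild type, and all 3 passed the rule.

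BGAL9 (AT2G32810), BGAL8 (AT2G28470) and BGAL17 (AT1G72990) did not pass. BGAL9 had 404 reads in wild type against 309 in the library labelled jmj16, or 11.6 (10.5 to 12.8) and 6.72 TPM (5.99 to 7.51), and its log2 ratio was -0.86 (-1.08 to -0.64). The interval of BGAL9 excluded equality, but the difference was under 2-fold. BGAL8 had 52 and 47 reads, with a log2 ratio of -0.62 (-1.22 to -0.02), so its interval also excluded equality, but narrowly. BGAL17 had 75 and 104 reads, with the ratio closest to equality in the family, a log2 ratio of -0.0026 (-0.44 to 0.45). The sign of that ratio is not fixed by these data, being 0.09 with total-count and 0.02 with upper-quartile scaling. The 4 members outside the a1 subfamily, BGAL10 among them, added up to 1336 and 748 reads, 2.48-fold lower (2.26 to 2.71). BGAL10 alone of the 4 passed, and it gave 805 and 288 of these reads.

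**Figure D2:**
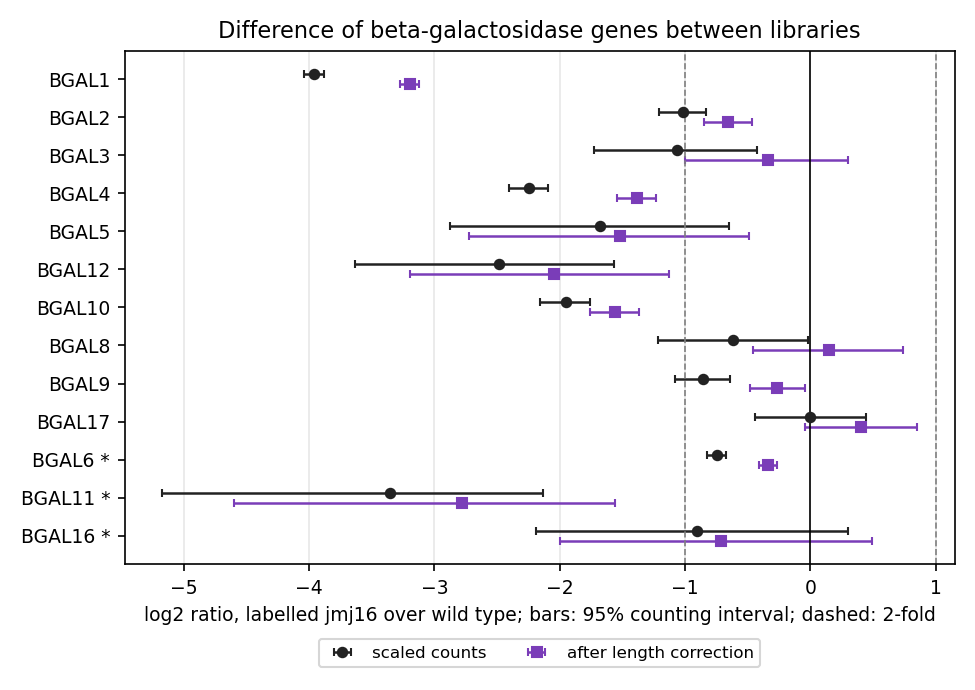
Log2 ratio of the library labelled jmj16 over wild type for the 13 measured BGAL genes, from scaled counts (circles) and after correction for transcript length (squares), with 95% counting intervals. Dashed lines mark 2-fold, and an asterisk marks loci outside the 10 members. BGAL1, BGAL4, BGAL5, BGAL10, BGAL12 and BGAL11 pass the 2-fold line both ways.

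The family locus with the next most reads after BGAL1 is not among the 10 members. BGAL6 (AT5G63800, MUM2), known for its part in the release of seed coat mucilage, had 3411 reads in wild type against 2817 in the library labelled jmj16. Its level was 115 TPM (111 to 119) and 71.7 TPM (69.1 to 74.4), and its log2 ratio of -0.75 (-0.82 to -0.68) did not pass the 2-fold rule. BGAL11 (AT4G35010) was at 40 and 5 reads, 10.2-fold lower (4.38 to 36.0). Of 5 floral and 3 seed markers, the floral gene SEP1 (35 and 2 reads) and the seed storage gene CRA1 (23 and 0) were also lower. AG had 17 and 12 reads, PI 3 and 2, AP1 1 and 0 and AP3 1 and 2, while CRU3 and OLEO1 had none. Their part in the count of BGAL11 was not tested. BGAL16 (AT1G77410) had 15 and 11 reads and was neither, with a log2 ratio of -0.90 (-2.19 to 0.30). BGAL13 had 8 and 4 reads and was not measured. BGAL7, BGAL14 and BGAL15 had 0 reads in both libraries, for which a Poisson interval reaches up to 3.69 reads each. Of the 17 loci 13 were measured, with 8 lower, 0 higher and 5 neither, and their median log2 ratio was -1.06, where 10.6% of all measured genes were lower. After length correction 6 of the 13 were lower, 0 higher and 7 neither, where 6.69% of all measured genes were lower and 6.24% higher. The corrected median of the 13 was -0.71.

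The order of levels differed between the libraries. In wild type BGAL1 came first, followed by BGAL6, BGAL4, BGAL10, BGAL2 and BGAL9, and the counting intervals of neighbours in that order did not overlap. Below them BGAL17 stood at 2.56 TPM, and from BGAL17 downward, through BGAL12, BGAL3, BGAL8, BGAL11 and BGAL5, every interval overlapped with that of the next. In the library labelled jmj16 BGAL6 came first, then BGAL1 and BGAL2, all apart. BGAL10, BGAL4 and BGAL9 followed at 7.42, 7.36 and 6.72 TPM, with overlapping intervals, so that their order cannot be told. BGAL17 stood apart below them at 2.73 TPM.

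The make-up of the family's transcripts differed accordingly. The TPM of all 17 loci summed to 616 in wild type and 136 in the library labelled jmj16. BGAL1 took 64.8% of that sum in wild type and 19.8% in the library labelled jmj16. As a share of reads, with exact Clopper-Pearson intervals, this was 69.8% (69.2 to 70.4) and 24.3% (23.3 to 25.5). BGAL6 took 18.6% and 52.7% of the TPM, a larger share of a smaller sum, although its own level was also lower. Over the 10 members alone, BGAL1 took 79.9% and 42.2% of 500 and 63.9 TPM. Reads of the 10 members added up to 19665 and 3070, which is 8.88-fold lower (8.55 to 9.23). Without BGAL1 the other 9 had 3515 and 1632 reads, 2.99-fold lower (2.82 to 3.17). Most of their wild type reads were of BGAL4 (1478 and 432 reads) and BGAL10 (805 and 288), so the sum mainly follows these.

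**Figure D3:**
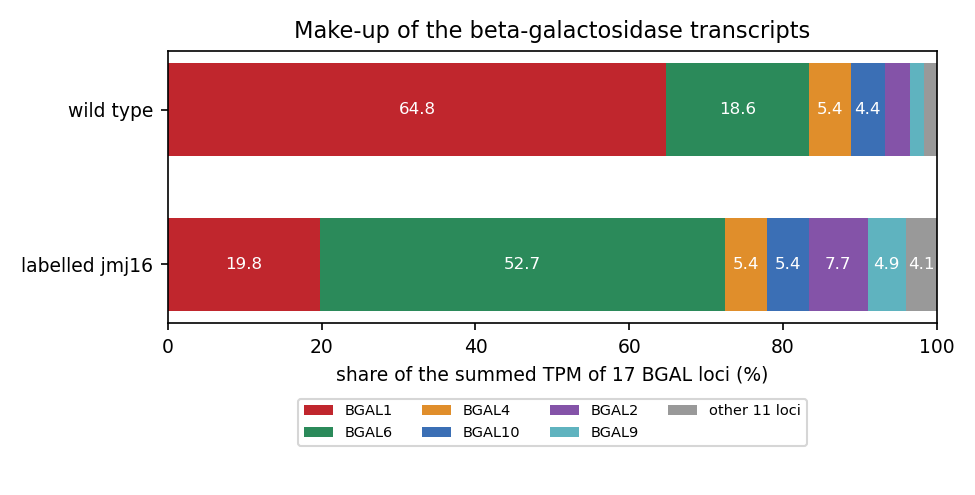
Share (%) of the summed TPM of the 17 BGAL loci taken by each of the 6 most abundant and by the other 11 together, in the wild type (upper bar) and the library labelled jmj16 (lower bar). BGAL1 takes 64.8% in wild type and 19.8% in the library labelled jmj16, and BGAL6 18.6% and 52.7%.

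BGAL transcripts are long, and long transcripts were lower in the library labelled jmj16 in general. Across measured genes the log2 ratio had a Spearman rho of -0.43 with transcript length, where genes are not independent replicates. Of the 10 members 5 belong to the decile of genes with the longest transcripts, 4 to the decile below it and 1 to the one below that. In the longest decile, from 2981 nt, the median log2 ratio was -0.87 and 41.0% of genes were lower. In the decile from 2382 to 2980 nt the median was -0.37 and 18.9% were lower. After the log2 ratio was corrected for this trend, 5 of the 10 members were lower, 0 higher and 5 neither, where 6.69% of measured genes were lower and 6.24% higher. The corrected median of the members was -1.02. What else differs between long and short transcripts was not tested.

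The 5 that still passed were BGAL1, BGAL4, BGAL5, BGAL10 and BGAL12. BGAL1 had a corrected log2 ratio of -3.20 (-3.28 to -3.12), and 63 of 17151 measured genes lay lower. Within the longest decile of 1716 genes, 2 had a lower uncorrected ratio than BGAL1. BGAL10 had a corrected ratio of -1.56 (-1.76 to -1.36). For BGAL4 it was -1.39 (-1.55 to -1.23), with a part of the difference thus removed, since its 3812 nt make it the longest of the family. BGAL12 kept -2.05 (-3.19 to -1.12) and BGAL5 -1.52 (-2.72 to -0.49). BGAL2 and BGAL3 no longer passed, at -0.66 (-0.84 to -0.47) and -0.33 (-0.9996 to 0.30). BGAL9, with -0.86 before correction, was at -0.26 (-0.48 to -0.045) after it. BGAL8 and BGAL17 turned positive, at 0.15 (-0.46 to 0.74) and 0.40 (-0.04 to 0.85), with intervals that include 0.

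**Figure D4:**
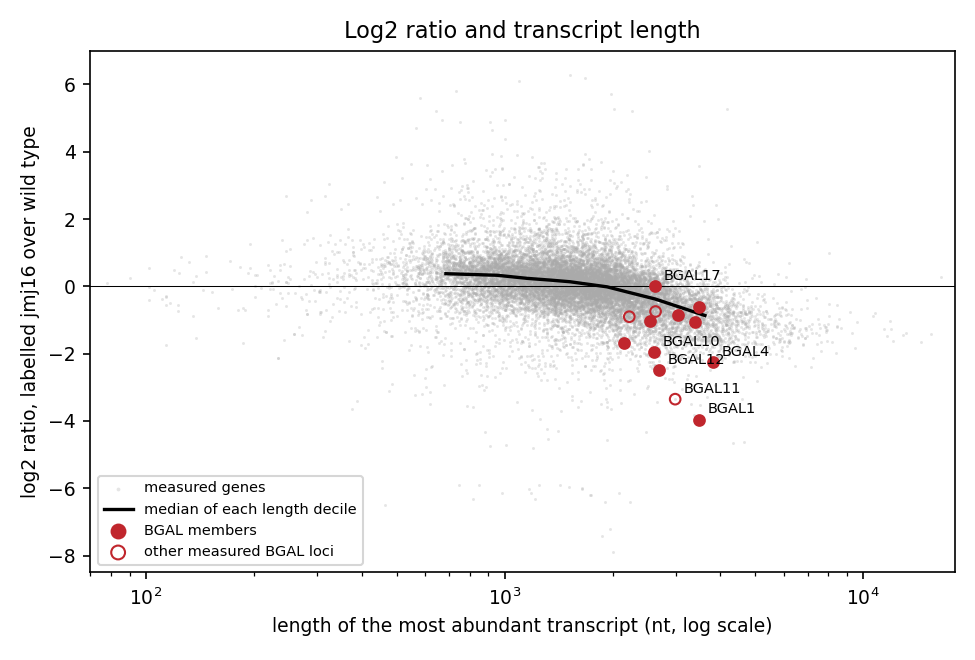
Log2 ratio of the library labelled jmj16 over wild type against transcript length (nt, log scale) for 17151 measured genes (grey), with the median of each length decile (line), the 10 members (filled) and the 3 other measured BGAL loci (open). The median goes from 0.38 in the shortest decile to -0.87 in the longest, and BGAL1 at -3.96 lies well below it.

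Several members have more than 1 transcript model, and the reads of the little-read ones were divided differently in the libraries. BGAL1, BGAL4 and BGAL10 have 1 model each, and BGAL2, BGAL5 and BGAL9 have 2 of which only 1 had reads. For BGAL3 the model AT4G36360.1 had 45.3 reads in wild type against 15.1 in the library labelled jmj16, while AT4G36360.2 had 7.67 and 19.9. BGAL8 was read mostly as AT2G28470.1 and AT2G28470.3 in wild type (28.0 and 22.2 reads), and mostly as AT2G28470.4 in the library labelled jmj16 (34.0 reads, against 0 in wild type). Of the BGAL17 reads, AT1G72990.1 took 84.0% in wild type and 60.6% in the library labelled jmj16, and AT1G72990.4 nearly all the rest. Of the 9 models of BGAL12, 4 had reads in at least 1 library, 46 and 11 in sum. AT4G26140.8 had 33.2 and 6.00 of them, AT4G26140.9 12.9 and 0, and AT4G26140.1 0 and 4.98. These splits are estimates from few reads of models that overlap in sequence. From the most abundant model alone, BGAL8 had a log2 ratio of -1.55 and passed, and BGAL3 one of -2.03.

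Genes that build galactose side chains were looked at beside the family. The lists of related genes were chosen with earlier results of these data known. Of 12 genes for galactan synthesis and the supply of UDP-galactose 11 were measured, and 1 was higher, 0 lower and 10 neither. The median of their log2 ratios was 0.48 against 0.02 for all measured genes, of which 7.22% were higher and 10.6% lower. Their log2 ratios were above 0 for 7 genes and below 0 for 4. GALS1, a galactan synthase, was at 5 and 21 reads, 2.82-fold higher (1.11 to 10.3). Of 3 galactosyltransferases of arabinogalactan proteins 2 were measured. GALT2 was lower with 36 and 17 reads (2.89-fold, 1.61 to 5.57), at a log2 ratio of -1.53. GALT29A was neither, with 30 and 52 reads and a log2 ratio of 0.31 (-0.35 to 1.02). The median of -0.61 is thus the middle of 2 ratios of opposite sign. GALT31A had 1 and 18 reads and was not measured.

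The same shares of all measured genes, 10.6% lower and 7.22% higher, stand beside the counts of other enzymes that trim side chains. Of 5 genes that add or remove xyloglucan side chains 1 was lower and 4 neither, and the median log2 ratio was 0.02. The lower one was XYL1, the alpha-xylosidase that removes xylose from xyloglucan, with 2578 and 911 reads (3.92-fold, 3.64 to 4.24). XYL1 still passed after length correction, at a log2 ratio of -1.25. Of 10 other side chain glycosidases 8 were measured, and 2 were lower, 0 higher and 6 neither, with a median of 0.04. AGAL3, APSE and ARAF2 were left out because the gene table of the reference does not carry their names. AGAL3 and APSE were neither, at log2 ratios of -0.32 and -0.91, both below that median, and ARAF2 had 0 reads in both libraries. BXL1, a beta-xylosidase and arabinofuranosidase of the wall, was at 5165 and 1609 reads, 4.45-fold lower (4.21 to 4.71). Its corrected log2 ratio was -1.62. BXL2 was 2.48-fold lower (1.63 to 3.89) with 63 and 35 reads, and no longer passed after length correction, at -0.83.

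Genes named for induction by darkness and low sugar (DIN) were looked at as well. Of 7, 6 were measured, 3 were lower, 0 higher and 3 neither, and the median log2 ratio was -1.29, or -1.44 after length correction, where 10.6% of all measured genes were lower and 7.22% higher. DIN6, an asparagine synthetase, had 229 and 34 reads, DIN10, a raffinose synthase homologue, 3730 and 914, and DIN1 (SEN1) 3424 and 1271.

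**Figure D5:**
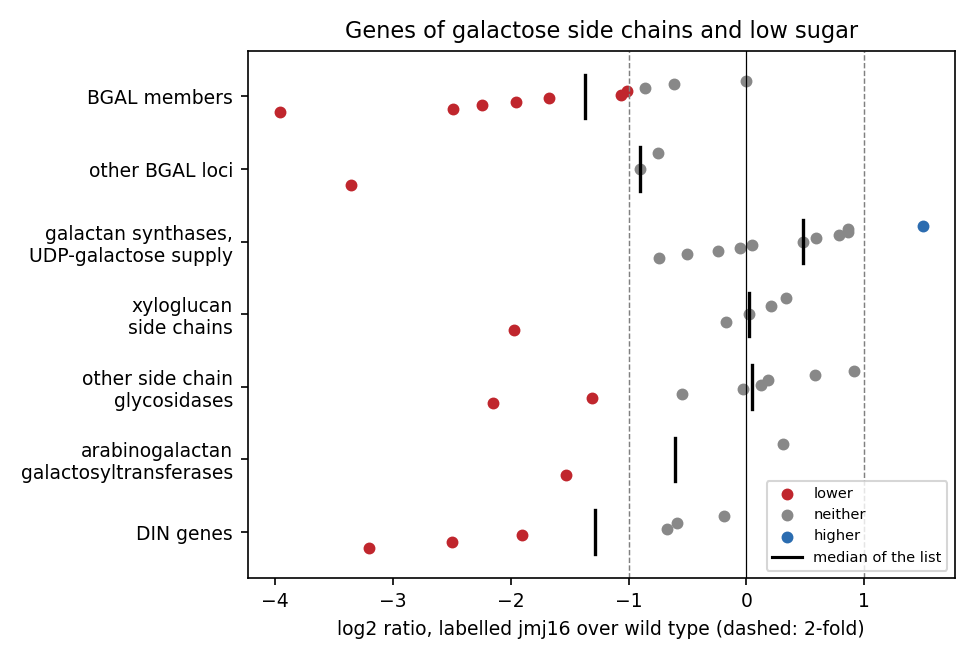
Log2 ratio of the library labelled jmj16 over wild type for each measured gene of the BGAL family and of 5 lists of related genes, with the median of each list as a vertical bar, dashed lines at 2-fold, and colours for lower, neither and higher. The medians of the BGAL members (-1.37) and the DIN genes (-1.29) lie below 0, and that of the galactan synthases and UDP-galactose supply (0.48) above.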

How the data were processed

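RNA of 1 wild type and 1 jmj16 leaf library was compared. Per the file headers, the authors deposited for each transcript model an estimated count of reads, not normalized and not always whole, and TPM, in the layout Salmon writes. Salmon, TopHat2, Bowtie2, SAMtools, deepTools and build TAIR10 are named per the submitters' processing notes, without roles or versions. For the annotation release, read layout, strandedness and trimming, the value is not given in the sources used here. Effective lengths are the same in both deposited tables, so TPM corrects no difference in length between libraries. Salmon divides reads among similar transcripts. Estimated counts of 3 members in wild type (BGAL2, BGAL4 and BGAL12) and of BGAL12 in the library labelled jmj16 were not whole within 0.001, so some of their reads were divided with other loci.

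Estimated counts and TPM of 48359 transcript models were summed per locus, and summed counts were rounded. Libraries were scaled with TMM factors of 0.969 and 1.03 (edgeR 4.0.16, R 4.3.3, scaling only). Log2 ratios had 0.5 added to each count. Counting intervals (95%) were Clopper-Pearson for ratios and shares and Poisson for single counts and TPM. Reads are not independent molecules, so all cover counting error only. Length correction subtracted a lowess fit (span 0.3) on log2 length of the most abundant transcript. The ratio, call and correction steps were run on simulated counts with counting error alone and a straight-line trend on log2 length. Such counts cannot test the steps for variation between libraries or for a curved trend. Calculations used Python 3.11.15, scipy 1.17.1 and statsmodels 0.14.6.

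The members and lists were chosen with earlier results of these data known. Symbols are those of the RefSeq table for TAIR10.1, in which 27445 of 27655 loci were found. JMJ16 was taken as AT1G08620 from general knowledge, where the table lists PKDM7D. Of 88 listed names 9 were left out because the table does not carry them: BGLC1, BGLC3, AGAL3, ARAF2, APSE, GALT5, HPGT1, HPGT2 and HPGT3. Named were all BGAL loci, JMJ16, up to 4 passing members of each list (or the 2 most read), and the 4 genes nearest to BGAL1. The marker genes given by name and the genes beside or overlapping members were named outside this rule, after their values were seen. So were GALT29A, GALT31A, AGAL3, APSE and ARAF2. A planned comparison of protein sequences was not made.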

Additional observations from a re-analysis of the deposited data

How the results depend on the processing

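Of the 10 members 7 were lower, and this count was 3 with log2(TPM + 1), 4 with a minimum of 100 reads (which left 6 members), 3 at 4-fold and 4 with an interval wholly beyond 2-fold. Under the other 8 alternatives it was between 5 and 9, and no member was higher under any of the 12. BGAL1, BGAL4 and BGAL12 passed also at 4-fold, and BGAL1, BGAL4 and BGAL10 with log2(TPM + 1), where an added 1 shrinks ratios of low TPM (BGAL12 -0.996, BGAL5 -0.63). The median log2 ratio of the members stayed between -1.81 and -0.80. Of all 17151 measured genes, 1825 were lower and 1239 higher. These counts were 749 and 946 with log2(TPM + 1), 3355 and 2821 at 1.5-fold, and 292 and 255 at 4-fold. With an interval wholly beyond 2-fold they were 807 and 487, and after length correction 1148 and 1070. With a minimum of 100 reads they were 1199 and 747 of 13618 measured genes. Total-count scaling gave 5 members lower, beside 1568 lower and 1489 higher of all measured genes. Upper-quartile scaling gave 6, beside 1757 and 1316. The most abundant transcript alone gave 8, beside 2196 and 1485 of 16943 measured genes. The cause was not tested beyond what each rule sets. No paired analysis was possible because each genotype has 1 library. Depth limits BGAL3, BGAL5, BGAL8 and BGAL12, each with fewer than 100 reads over both libraries.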

Other observations

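BGAL6 and BGAL10 are next to each other in the gene order of the reference, and had log2 ratios of -0.75 (-0.82 to -0.68) and -1.95 (-2.15 to -1.76). The 10 members have 20 protein-coding neighbours, of which 9 were measured, BGAL6 among them. Of the 9 measured, 1 was lower, 1 higher and 7 neither, where 10.6% of all measured genes were lower and 7.22% higher. Their median log2 ratio was -0.17. The lower one, AT3G13740, lies beside BGAL1, had 559 and 376 reads and a log2 ratio of -1.04 (-1.24 to -0.85). The higher one, TRX5, lies beside BGAL5, with a log2 ratio of 1.06 (0.84 to 1.28). In the reference the spans of 4 members overlap another gene, and with no strand setting stated, a read there could come from either gene. The gene that overlaps BGAL9, AP4.3A, had 220 and 567 reads and a log2 ratio of 0.89 (0.67 to 1.13), opposite in sign to BGAL9. The genes that overlap BGAL4, BGAL8 and BGAL12 had 0 and 0, 7 and 7, and 3 and 2 reads.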
